A study of Mus musculus with 18 samples.

Results

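Expression of 7 genes of arginine and citrulline metabolism was described among 33440 genes: Ass1 and Asl, which make arginine, Nos2, Nos3 and Odc1, which use it or its product ornithine, and Slc7a1 and Slc7a2, which carry it into the cell. The genes were chosen by their reads per gene in the same libraries, that is, by their differences in both comparisons and their levels in each WT group, so the values of these 7 genes are given as a description. The fits across all genes include them and are no independent test of them. All 7 had reads in every group.

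In the first experiment, SVF cells (the stromal-vascular fraction, which holds adipocyte precursors) from inguinal white fat of mice carrying the IRF3-2D allele were differentiated into adipocytes. IRF3-2D is a constitutively active form of the innate immune transcription factor IRF3 that is silent until Cre acts, and both groups carried it. At day 6 an AAV brought either GFP alone, giving the WT group of 3 libraries, or GFP with Cre, giving the FI3OE group of 3, and cells were harvested at day 8. The sources used here give donors of 4 to 6 weeks of age and do not name the promoter that drives Cre, so its action was not limited to adipocytes by any promoter known here. In the second experiment, RNA on ribosomes was isolated by TRAP (translating ribosome affinity purification, with an antibody against the GFP tag of a ribosomal protein) from eWAT of mice on the C57BL/6 background. Mice labelled FI3KO (6 libraries) were made to lack Irf3 in adipocytes and those labelled WT (6 libraries) were not, all mice carried the Ad-NuTRAP ribosome tag in adipocytes, and all were fed HFD for 8 weeks at thermoneutrality, per the labels. The methods give male mice of 8 weeks of age at the start of a diet that lasted longer than the labels state here, so the age of these mice is not certain, and name Adipoq-Cre, driven by the adiponectin promoter of adipocytes, as the only Cre strain, without saying which groups carried it. The labels call the libraries biological replicates without saying whether each came from a separate mouse or culture, so tests measure the spread between libraries only.

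Arginine is made from citrulline in 2 steps: argininosuccinate synthase joins citrulline to aspartate and argininosuccinate lyase then releases arginine and fumarate. Nitric oxide synthases turn arginine back into citrulline and release nitric oxide, so that synthase and lyase can recycle the citrulline, whereas arginine can also give ornithine, from which ornithine decarboxylase starts the polyamines. In adipose tissue nitric oxide is known for its action on blood flow, lipolysis and mitochondria, and inducible nitric oxide synthase is a classical gene of activated macrophages.

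The RefSeq promoter sequences of GRCm38.p6 at hand covered 3 of the 7 genes, Ass1, Slc7a1 and Odc1. This does not mean that the other genes lack a RefSeq promoter. The 3 are shown because Ass1 carried the largest difference between groups while the other 2 differed in both comparisons by less. Only bases before the first annotated start of the gene are printed, as chr2:31470020-31470206 on the plus strand for Ass1, chr5:148399905-148400154 on the minus strand for Slc7a1 and chr12:17544623-17544793 on the plus strand for Odc1. Capitals mark GC boxes (GGGCGG on either strand).
Ass1: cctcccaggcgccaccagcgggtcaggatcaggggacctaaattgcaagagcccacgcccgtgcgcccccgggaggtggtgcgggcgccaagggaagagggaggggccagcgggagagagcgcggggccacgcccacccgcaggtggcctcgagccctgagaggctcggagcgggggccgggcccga
Slc7a1: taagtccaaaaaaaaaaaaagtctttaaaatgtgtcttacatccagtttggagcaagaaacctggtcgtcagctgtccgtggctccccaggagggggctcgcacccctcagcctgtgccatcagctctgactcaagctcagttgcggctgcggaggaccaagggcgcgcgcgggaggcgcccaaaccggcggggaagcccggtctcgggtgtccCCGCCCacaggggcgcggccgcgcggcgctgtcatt
Odc1: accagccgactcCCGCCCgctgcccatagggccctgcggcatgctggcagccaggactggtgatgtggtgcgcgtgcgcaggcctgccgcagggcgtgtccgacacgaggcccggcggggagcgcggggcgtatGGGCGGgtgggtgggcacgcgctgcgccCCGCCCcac
The windows of 250 bases before to 50 after each RefSeq start were searched on both strands for the ISRE core (GAAANNGAAA), the GAS element (TTCNNNGAA), the E-box (CACGTG), the CARE element (TGATGNAA), the TATA box (TATAAA), the GC box, the CRE (TGACGTCA) and the NF-kB motif. The Ass1 window held 1 E-box, at -36 to -31, and 1 GC box, at -63 to -58, counted from the RefSeq start with the base before it as -1. The GC box begins at the GENCODE start of Ass1 and the E-box lies after it. The E-box is shown with its flanks, chr2:31470226-31470247, in capitals.
Ass1 E-box: cccgtcccCACGTGtcccaggt
An E-box of these letters was in 7.15% of 32851 RefSeq promoters, a GC box in 35.7%, an ISRE core in 3.44% and an NF-kB motif in 8.46%. Neither an ISRE core nor an NF-kB motif was in the windows of the 3 genes. The Slc7a1 window held 1 GC box and the Odc1 window 4, and a second Slc7a1 window, which begins at an internal start and is not printed, held a GAS element and a TATA box. These matches are of letters only.

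Libraries of SVF-derived adipocytes held between 21541334 and 36932452 reads and TRAP libraries between 25259869 and 40490283. Values are CPM after TMM normalization (reads scaled to a common library size), and genes are compared with each other by TPM, the corresponding transcript measure, which takes account of length. As a check of the labels, Irf3 was at 95.0 ± 5.7 CPM in FI3OE against 57.2 ± 0.63 CPM in WT (SD of 3 libraries), and at 15.8 ± 2.5 CPM in FI3KO and 20.1 ± 2.1 CPM in WT TRAP (SD of 6 libraries), where the groups overlapped although 4 of 6 FI3KO libraries were lower than any from WT. The reads counted over the whole gene thus show a lower level and not a loss. The summed CPM of 10 adipocyte markers was 7492 to 7574 in WT and 7471 to 7866 in FI3OE cultures, and 28370 to 32090 in WT and 28070 to 32170 in FI3KO TRAP libraries. They did not move together: in TRAP Lep fell from a mean of 9389 to 3031 CPM while Cfd rose from 682 to 2421 CPM (adjusted p = 0.0001 and 0.00476 in edgeR), and in the cultures Lep was low, at means of 15.9 CPM in WT and 13.5 CPM in FI3OE. The summed CPM of 15 macrophage markers was 2575 to 2756 in WT and 2629 to 2706 in FI3OE SVF-derived adipocytes. These cultures were thus not adipocytes alone. Of the 14 tested there, 5 were higher and 4 lower in FI3OE at an adjusted p of at most 0.05 in edgeR. Over all genes 20.2% were higher and 16.8% lower. Mrc1 had a log2 fold change of -0.87 and Mpeg1 of 0.49. In TRAP the sum was 131 to 222 in WT and 81.1 to 141 in FI3KO, of which Lgals3 made up a mean of 114 and 85.5. FI3KO libraries formed 3 close pairs, replicates 1 and 2, 3 and 4, and 5 and 6 (chi-square per degree of freedom 34.9, 17.6 and 16.9, against 56.5 to 268 for other FI3KO pairs). The labels do not say whether libraries of a pair share an animal, in which case n = 6 would be too large. Replicates 1 and 2 lay farthest from the others, and WT replicates 1 and 2 were the closest pair of TRAP libraries (2.54, against 8.41 to 268 for other pairs within a TRAP group), so values are also given for replicates 1 and 2 and for replicates 3 to 6. Replicate numbers did not pair FI3KO with WT libraries, so a set is not a matched comparison, and a difference between sets can come from either group. In bulk libraries fewer cells of a type and less RNA per cell cannot be told apart.

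In WT TRAP libraries Ass1 was the most abundant of the 7 genes, at 97.9 ± 13.9 TPM. Odc1 followed at 65.1 ± 4.8 TPM and Asl at 32.8 ± 4.0 TPM. Nos3 was at 22.2 ± 7.1 TPM, Slc7a1 at 6.57 ± 1.7 TPM, and Slc7a2 and Nos2 were each below 0.3 TPM on average (SD of 6 libraries). The ranges of Asl and Nos3 overlapped, as did those of Slc7a2 and Nos2, and the other neighbours in this order did not overlap. In WT SVF-derived adipocytes the order was another one, with Asl first at 52.7 ± 3.3 TPM, then Odc1 at 40.6 ± 2.1 TPM, Slc7a1 at 32.3 ± 1.0 TPM and Ass1 at 21.1 ± 1.4 TPM (SD of 3 libraries). Slc7a2 was at 13.5 ± 1.1 TPM, Nos3 at 2.02 ± 0.17 TPM and Nos2 at 0.373 ± 0.21 TPM (SD of 3 libraries), and no neighbours in this order overlapped. The place of Asl in both orders depends on how its reads were split among transcripts of unlike length. The 2 experiments differ in depot, diet, culture and RNA fraction, so no test was made between them. Between the WT groups Ass1, Odc1 and Nos3 were the more abundant in TRAP and Asl, Slc7a1 and Slc7a2 in the cultures, each without overlap, while Nos2 was low in both, with overlapping ranges.

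**Figure D1:**
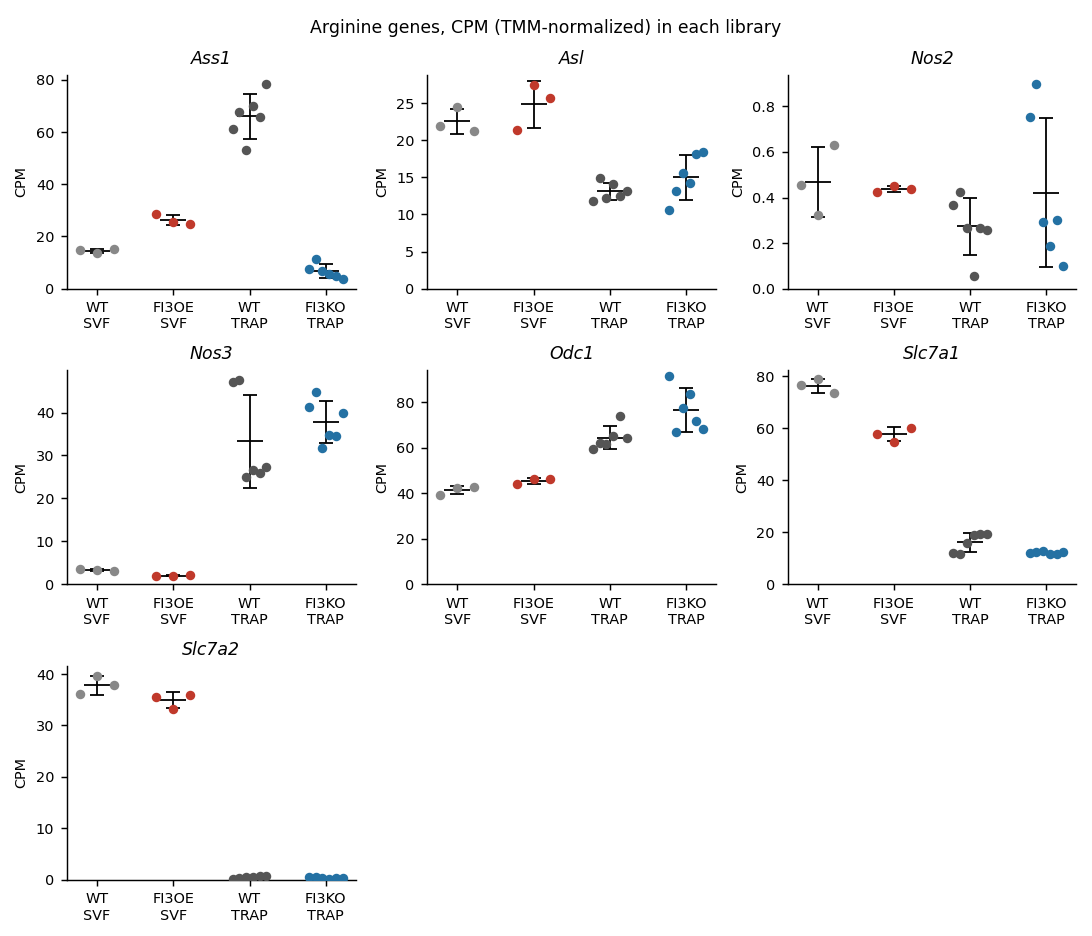
CPM of the 7 genes in each library; points are libraries, horizontal marks the group mean and bars the SD (n = 3 in SVF groups, 6 in TRAP groups), on linear axes from 0. The 6 FI3KO libraries of Ass1 lie between 3.51 and 11.3 CPM, all below the WT TRAP libraries at 52.9 CPM or more.

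Of the 7 genes, all 7 passed the filter on low counts in SVF-derived adipocytes and 6 in TRAP, where Nos2 had too few reads. In SVF-derived adipocytes 0 of 7 were past both cutoffs (adjusted p of at most 0.05 and absolute log2 fold change of at least 1 in edgeR's quasi-likelihood test), beside 3.62% of 16105 genes. At the adjusted p alone 2 of 7 were higher, Ass1 and Odc1, beside 20.2% of all genes, and 2 were lower, Nos3 and Slc7a1, beside 16.8%. Libraries of the 2 groups did not overlap for 5 of 7 genes, beside 49.5% of all genes. In TRAP 1 of 6 genes was past both cutoffs, Ass1, beside 6.61% of 13624 genes. At the adjusted p alone 1 was higher, Odc1, beside 19.1%, and 2 were lower, Ass1 and Slc7a1, beside 18.3%, and groups did not overlap for 1 of 6, Ass1, beside 16.0%. These comparisons chose the genes, and nothing is read from the counts. The median log2 fold change was -0.11 over the 7 genes and -0.00474 over all genes in SVF-derived adipocytes, and -0.12 over the 6 genes and 0.02 over all genes in TRAP.

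**Figure D2:**
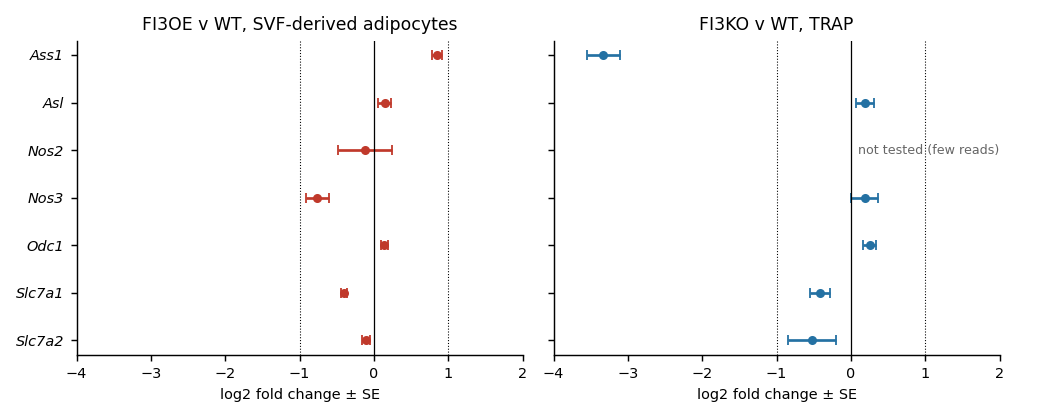
Log2 fold change of each gene with its standard error from edgeR, FI3OE against WT in SVF-derived adipocytes (left) and FI3KO against WT in TRAP (right); dotted lines mark a log2 fold change of 1 in either direction. Ass1 lies at 0.85 and -3.33, and the other genes between -0.76 and 0.25.

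Ass1 (ENSMUSG00000076441) lies on chromosome 2 of GRCm38 from 31470207 to 31520672, on the plus strand, and encodes argininosuccinate synthase, generally taken as the limiting step in the recycling of citrulline. In WT TRAP libraries it was lowest at 52.9 CPM, with a median of 66.8 and a highest value of 78.3 CPM, and in FI3KO it was lowest at 3.51 CPM, with a median of 6.27 and a highest value of 11.3 CPM. Every FI3KO library was below every WT library. The means of 6.59 ± 2.7 and 66.0 ± 8.5 CPM (SD of 6 libraries) are a 10.0-fold difference and a log2 fold change of -3.33 (SE 0.22). Ass1 did not separate the 2 sets of WT libraries, which had a mean of 64.6 CPM in replicates 1 and 2 and of 66.8 CPM in replicates 3 to 6. The FI3KO sets were at 9.39 and 5.19 CPM, so that Ass1 was 6.87-fold lower in FI3KO in replicates 1 and 2 (log2 fold change -2.77, SE 0.19) and 12.8-fold lower in replicates 3 to 6 (-3.69, SE 0.19). The summed macrophage markers were 136 and 141 CPM in FI3KO and 134 and 131 CPM in WT in replicates 1 and 2, and lower in FI3KO in replicates 3 to 6. The summed fibroblast markers were 1008 to 1635 CPM in FI3KO and 1854 to 2941 CPM in WT, mostly Col15a1 (means of 992 and 1260 CPM) and Col1a1 (278 and 986 CPM). Of the 9 fibroblast markers tested 4 fell, Dcn rose from a mean of 27.0 to 69.5 CPM (log2 fold change 1.36, adjusted p = 0.00117 in edgeR), and 4 were not past the threshold. Of the neutrophil markers S100a8 fell from a mean of 5.13 to 0.245 CPM (-4.32, adjusted p = 6.59e-05 in edgeR), while Ly6g and Retnlg were at 0 in all TRAP libraries and S100a9 at or near 0. The part of these cell types in the difference of Ass1 was not tested.

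In SVF-derived adipocytes Ass1 was at 28.6, 25.5 and 24.9 CPM in FI3OE and at 14.7, 13.7 and 15.3 CPM in WT. All 3 FI3OE libraries were above all WT libraries. The means of 26.3 ± 2.0 and 14.6 ± 0.79 CPM (SD of 3 libraries) are a 1.81-fold difference and a log2 fold change of 0.85 (SE 0.071). Nearly all reads of Ass1 were assigned to 1 transcript, Ass1-201 of 1696 nt, with at least 98.2% in each library, so that its difference does not rest on how reads were split among transcripts.

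Asl (ENSMUSG00000025533), at 130011258 to 130029247 of chromosome 5 (minus strand), encodes argininosuccinate lyase, the step after Ass1. It was at 21.3, 27.5 and 25.7 CPM in FI3OE and 21.9, 24.5 and 21.3 CPM in WT, and the groups overlapped, with a log2 fold change of 0.14 (SE 0.089). In TRAP it ranged from 10.6 to 18.4 CPM in FI3KO (median 14.9) and from 11.9 to 14.9 CPM in WT (median 12.8), with overlap and a log2 fold change of 0.19 (SE 0.12). FI3KO replicates 5 and 6 were the highest libraries, at 18.1 and 18.4 CPM, and the log2 fold change was -0.17 (SE 0.17) in replicates 1 and 2 and 0.35 (SE 0.098) in replicates 3 to 6. Asl did not follow Ass1 in TRAP. The ratio of Ass1 to Asl by TPM was 2.43 to 3.77 in WT TRAP libraries and 0.105 to 0.532 in FI3KO, so that synthase exceeded lyase in every WT library and lyase exceeded synthase in every FI3KO library. In SVF-derived adipocytes lyase was the higher by TPM in all 6 libraries. The ratio was 0.778, 0.576 and 0.547 in FI3OE and 0.396, 0.358 and 0.451 in WT. The TPM of Asl, unlike that of Ass1, depends on how Salmon split its reads, mainly among 4 transcripts of 864 to 2088 nt. Asl-201 and Asl-206, of 864 and 923 nt, held means of 30.6% and 35.1% of its reads in FI3OE, and short transcripts raise TPM. By CPM, which leaves length out, Ass1 was the higher in FI3OE replicate 1, at 28.6 against 21.3. The order of the pair in FI3OE thus rests on this split.

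**Figure D3:**
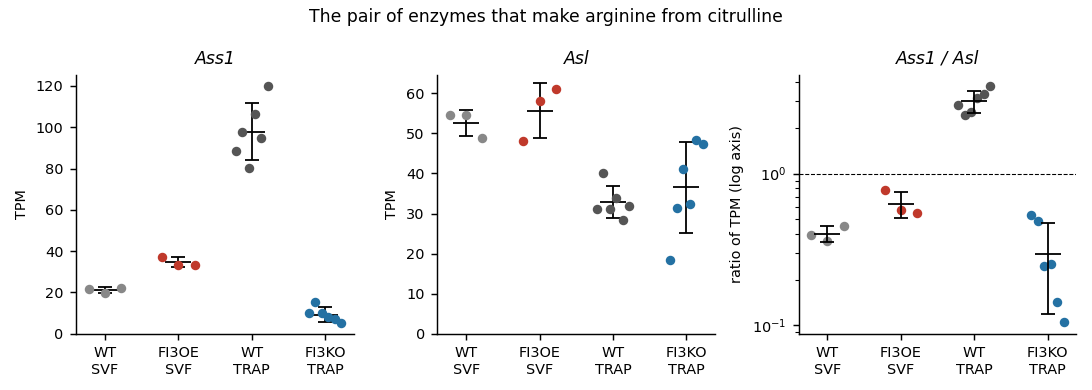
TPM of Ass1 and Asl on linear axes from 0 and their ratio on a log axis, per library, with the mean and SD of each group (n = 3 in SVF groups, 6 in TRAP groups); the dashed line marks equal TPM. The ratio is above 1 in the 6 WT TRAP libraries, lowest at 2.43, and below 1 in the other 12. It depends on how Salmon split the reads of Asl among transcripts.

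Genes around Ass1 were tested as well. Of the genes within 500 kb of either end of Ass1, 12 were tested in TRAP, and their log2 fold changes were between -0.88 and 0.99. The 2 nearest were Hmcn2, an extracellular matrix gene upstream (log2 fold change -0.09, SE 0.55), and Fubp3, a nucleic acid binding protein downstream (0.04, SE 0.062), neither of which was past the threshold (adjusted p = 0.913 and 0.656, edgeR's quasi-likelihood test over all genes). The adjusted p was below the threshold for 3 of the 12, Ncs1, a neuronal calcium sensor (-0.88, SE 0.31, adjusted p = 0.0414 in edgeR), Abl1, a tyrosine kinase (0.16, SE 0.055, adjusted p = 0.0314 in edgeR), and D330023K18Rik (0.99, SE 0.21, adjusted p = 0.00358 in edgeR). In SVF-derived adipocytes 14 neighbours were tested, with log2 fold changes between -0.26 and 0.73, and 6 of them had an adjusted p below the threshold in edgeR: Aif1l (0.73, SE 0.26), BC005624 (0.33), Ncs1 (0.31, adjusted p = 0.000909), Abl1 (0.20) and Gpr107 (0.11) were higher and Fnbp1 (-0.19) was lower. Over all genes 20.2% were higher and 16.8% lower in SVF-derived adipocytes, and 19.1% and 18.3% in TRAP. Nothing is read from the number of neighbours. Ncs1 and Abl1, named here after their values were seen, were past the threshold in both comparisons. Ncs1 lay on the same side of WT as Ass1 in each, and Abl1 only in SVF-derived adipocytes. D330023K18Rik in TRAP and Fnbp1 in SVF-derived adipocytes lay on the other side.

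**Figure D4:**
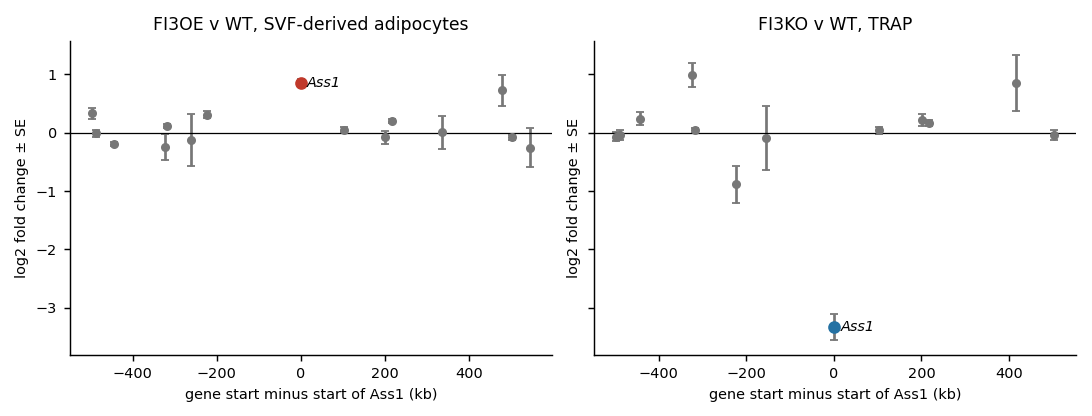
Log2 fold change with its standard error for Ass1 (coloured) and the genes tested within 500 kb of it, by the distance of each gene's lower coordinate from that of Ass1, in SVF-derived adipocytes (left) and TRAP (right). Ass1 is at -3.33 in TRAP, below the lowest neighbour at -0.88.

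Nos2 (ENSMUSG00000020826, chromosome 11, 78920787 to 78960254, plus strand), the inducible synthase, was at 0.423, 0.449 and 0.436 CPM in FI3OE and 0.454, 0.324 and 0.630 CPM in WT, that is, 7 to 16 reads a library, with overlap and a log2 fold change of -0.12 (SE 0.36). In TRAP it ranged from 0.0975 to 0.898 CPM in FI3KO (median 0.296) and from 0.0571 to 0.425 CPM in WT (median 0.266), with overlap. The highest TRAP libraries were FI3KO replicates 1 and 2, with 18 and 27 reads. Nos2 stayed low in FI3OE, where 8 of 8 interferon-stimulated genes rose past both cutoffs, among them Ifit1, with a log2 fold change of 2.08 (adjusted p = 1.63e-10 in edgeR). In TRAP 0 of 7 of those genes tested passed the adjusted threshold of edgeR, and Isg15 had an adjusted p of 0.149.

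Nos3 (ENSMUSG00000028978, chromosome 5, 24364810 to 24384474, plus strand), the synthase named for endothelium, was at 1.90, 1.94 and 2.10 CPM in FI3OE and 3.63, 3.33 and 3.15 CPM in WT SVF-derived adipocytes. All FI3OE libraries were below all WT libraries, and the means of 1.98 ± 0.10 and 3.37 ± 0.24 CPM (SD of 3 libraries) have a log2 fold change of -0.76 (SE 0.15). The 9 endothelial markers tested there included 2 that were higher, Tek (log2 fold change 0.39, adjusted p = 0.0424) and Eng (0.34, adjusted p = 0.00103, both in edgeR), and none lower, and the sum of all 12 listed was 53.4 to 57.0 CPM in FI3OE and 46.0 to 46.8 CPM in WT. In TRAP Nos3 was far more abundant. It ranged from 31.8 to 44.9 CPM in FI3KO (median 37.4) and from 25.1 to 47.6 CPM in WT (median 27.0). WT replicates 1 and 2, at 47.1 and 47.6 CPM, were above all FI3KO libraries and WT replicates 3 to 6, at 25.1 to 27.4 CPM, were below them. The log2 fold change of 0.18 (SE 0.18) over all libraries was accordingly -0.13 (SE 0.081) in replicates 1 and 2 and 0.43 (SE 0.074) in replicates 3 to 6. Per length, Nos3 in WT TRAP (mean 22.2 TPM) stood beside endothelial markers of 0.239 to 17.1 TPM on average, of which Egfl7 was the highest at 10.6 to 21.5 TPM, a range that overlapped that of Nos3, followed by Cldn5 at a mean of 13.2 TPM, while Pecam1 and Cdh5 were at means of 4.75 and 3.48 TPM. The summed endothelial markers were 37.1 to 72.8 CPM in WT and 34.4 to 155 CPM in FI3KO, with FI3KO replicates 1 and 2 at 98.9 and 155 CPM, and their part in the Nos3 level was not tested. Of the Nos3 exons, 1040 of 4132 bases overlap Gm15587 and 294 overlap Atg9b on the opposite strand, and reads from either cannot be told apart without strand.

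Odc1 (ENSMUSG00000011179, chromosome 12, 17544794 to 17551505, plus strand), ornithine decarboxylase, the first and controlled step of polyamine synthesis, was higher by a small amount in both comparisons. It was at 44.0, 46.0 and 46.1 CPM in FI3OE and 39.1, 42.0 and 42.7 CPM in WT, without overlap, and the log2 fold change was 0.14 (SE 0.048). In TRAP it ranged from 67.0 to 91.4 CPM in FI3KO (median 74.6) and from 59.4 to 74.1 CPM in WT (median 63.0). The groups overlapped, with 3 of 6 FI3KO libraries above all WT libraries, and the log2 fold change was 0.25 (SE 0.082).

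Slc7a1 (ENSMUSG00000041313, chromosome 5, 148327410 to 148399904, minus strand), the widely expressed cationic amino acid carrier of the plasma membrane, was the member with the most reads in the cultures. It was at 58.0, 54.9 and 60.2 CPM in FI3OE and 76.5, 79.0 and 73.7 CPM in WT, and all FI3OE libraries were below all WT libraries. The means of 57.7 ± 2.7 and 76.4 ± 2.7 CPM (SD of 3 libraries) have a log2 fold change of -0.40 (SE 0.045). In TRAP it lay between 11.7 and 12.7 CPM in FI3KO (median 12.1), a narrow range, and between 11.5 and 19.4 CPM in WT (median 17.3). WT replicates 1 and 2, at 12.0 and 11.5 CPM, lay at the FI3KO level and WT replicates 3 to 6 above it, from 15.8 CPM. The log2 fold change was -0.41 (SE 0.13) over all libraries. It was 0.05 (SE 0.11) in replicates 1 and 2 and -0.60 (SE 0.082) in replicates 3 to 6. The FI3KO mean was 12.1 CPM in either set, so that the lower level in FI3KO rested on WT replicates 3 to 6.

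Slc7a2 (ENSMUSG00000031596, chromosome 8, 40862396 to 40922308, plus strand), a second carrier of the same family, separated the experiments more than the groups. It was at 35.6, 33.3 and 36.0 CPM in FI3OE and 36.0, 39.7 and 37.8 CPM in WT SVF-derived adipocytes, with FI3OE replicate 3 and WT replicate 1 almost level, and the log2 fold change was -0.11 (SE 0.053). In TRAP it lay between 0.217 and 0.466 CPM in FI3KO (median 0.379) and between 0.201 and 0.804 CPM in WT (median 0.579), with overlap and a log2 fold change of -0.52 (SE 0.32), which was 0.67 (SE 0.48) in replicates 1 and 2 and -0.99 (SE 0.29) in replicates 3 to 6. Of the summed TPM of the 2 carriers Slc7a2 made up 26.7% to 34.3% in the cultures, all 6 libraries included, and 1.04% to 11.2% in TRAP. The highest TRAP values, 11.2% in WT replicate 5 and 9.85% in FI3KO replicate 1, came mostly from 2.0 and 1.0 reads on Slc7a2-205 (519 nt). The remaining TRAP libraries were at 3.22% or less. Both carriers were more abundant in the cultures, where macrophage and fibroblast markers were also higher, and the part of such cells in their levels was not tested.

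The main annotated transcripts of Slc7a2 differ in which of 2 coding exons they use, and these are shown because the assignment of reads between them differed within the cultures. Slc7a2-201 uses the exon of 137 bases at chr8:40908398-40908534, and Slc7a2-202 and Slc7a2-203 the exon of 140 bases at chr8:40908056-40908195, both on the plus strand of GRCm38. In an alignment of the exons 84 bases, 60.0% of the aligned length, are identical, and capitals mark bases that differ.
Slc7a2-201: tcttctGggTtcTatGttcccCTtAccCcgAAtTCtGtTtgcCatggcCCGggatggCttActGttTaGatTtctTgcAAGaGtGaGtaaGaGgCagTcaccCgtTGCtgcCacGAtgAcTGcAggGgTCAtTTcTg
Slc7a2-203: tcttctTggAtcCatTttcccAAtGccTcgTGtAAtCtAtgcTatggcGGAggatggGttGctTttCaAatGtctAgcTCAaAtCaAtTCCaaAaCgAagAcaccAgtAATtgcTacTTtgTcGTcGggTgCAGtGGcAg
Slc7a2-201 held 18.4%, 19.0% and 19.3% of the reads of Slc7a2 in the WT cultures and 0%, 3.03% and 15.4% in FI3OE. The WT libraries were close together and all FI3OE libraries were below them, with FI3OE replicate 3 near WT. Slc7a2-203 held 52.8%, 50.5% and 49.1% in WT and 70.3%, 70.1% and 52.7% in FI3OE. The transcripts are 7910 and 7626 nt long, the shares are Salmon's estimates, and reads on the exons themselves were not counted. Of the Slc7a2 exons 635 of 9135 bases overlap Gm26584 on the opposite strand, whose reads cannot be told apart here. In TRAP, with 6 to 22 reads a library, the split between transcripts could not be read.

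The genes whose CPM across the 12 TRAP libraries were most like those of each member were listed, for the 5 members with a mean of at least 1 CPM and thus not for Nos2 and Slc7a2, among 11957 genes with a mean of at least 1 CPM, by Pearson's r of log2 CPM with 0.5 added. The libraries fall into groups and sets that all genes share, so the values describe likeness only. For Ass1 they were Mfsd7a (r = 0.988), Car12 (0.987) and Tsc22d2 (0.985), for Asl Trpc4ap (0.914), Zbtb20 (0.912) and Smarca4 (0.912), and for Nos3 Lmo1 (0.969), Hdac11 (0.953) and Pitpnm1 (0.949). For Odc1 they were Rit1 (r = 0.971), B3gat3 (0.970) and Rsl24d1 (0.968), and for Slc7a1 Glul (0.968), which encodes glutamine synthetase, Trib1 (0.967) and Gopc (0.966). Of the genes most like Ass1, Mfsd7a had a log2 fold change of -1.56, Car12 of -1.92 and Tsc22d2 of -0.55, each smaller than that of Ass1.

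Beside the 7 genes, 85 other genes of the same pathways were listed, and they are tested over all genes. In SVF-derived adipocytes 71 were tested, 17 of them higher and 21 lower at an adjusted p of at most 0.05 in edgeR's quasi-likelihood test, with a median log2 fold change of -0.00754. In TRAP 64 were tested, 15 higher and 14 lower, with a median of 0.05. Over all genes the shares were 20.2% higher and 16.8% lower in SVF-derived adipocytes and 19.1% and 18.3% in TRAP. The counts of each list that follows are to be read beside these shares. Past both cutoffs were 2 of 71 genes in SVF-derived adipocytes, beside 3.62% of all genes, and 4 of 64 in TRAP, beside 6.61%. All of them were lower than in WT, and nothing is read from their number. In the fit of all 18 libraries, which share one estimate of the spread, Asns, Sat1, Amd1, Aldh18a1 and Slc3a2, named in what follows for FI3OE, kept their direction at adjusted p of 0.0583 to 0.334 in edgeR.

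Among genes of the urea cycle and of proline, creatine and methylarginine metabolism, 6 of 22 tested were higher and 9 lower in FI3OE. Prodh, the proline dehydrogenase, fell from 49.3 ± 5.1 to 16.9 ± 1.6 CPM (SD of 3 libraries), a log2 fold change of -1.54 (SE 0.084, adjusted p = 9.16e-08 in edgeR). The enzymes that make proline and ornithine from glutamate or turn one into the other fell by less: Aldh18a1 by 0.40 (SE 0.053, adjusted p = 0.000114 in edgeR) and Oat by 0.31 (SE 0.045, adjusted p = 0.000219 in edgeR) on the log2 scale. Asns, the asparagine synthetase, fell by 0.44 (SE 0.047, adjusted p = 2.27e-05 in edgeR), and in TRAP it rose by 0.75 (adjusted p = 0.00847 in edgeR). In TRAP 5 of 20 tested were higher and 6 lower in FI3KO. Aldh18a1 fell from 13.4 ± 3.3 to 6.01 ± 1.0 CPM (SD of 6 libraries), a log2 fold change of -1.16 (SE 0.17, adjusted p = 0.000381 in edgeR), and Ddah1, which breaks down the methylarginines that inhibit nitric oxide synthases, fell from 22.5 ± 7.1 to 7.31 ± 2.5 CPM (-1.63, SE 0.26, adjusted p = 0.000624 in edgeR). Ddah2, of the same function, was higher in FI3KO by 0.62 (SE 0.14, adjusted p = 0.00479 in edgeR). In replicates 1 and 2 alone none of these 3 TRAP differences was past the threshold, with log2 fold changes of -0.37, -0.38 and 0.30 and adjusted p from 0.121 to 0.218 in edgeR. The urea cycle enzymes Cps1 and Otc had too few reads for a test in either experiment.

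Among polyamine genes 4 of 18 tested were higher and 3 lower in FI3OE, and 6 of 18 higher and 2 lower in FI3KO. Srm, the spermidine synthase, fell by 0.50 (SE 0.054, adjusted p = 2.33e-05 in edgeR) in FI3OE. It also fell in FI3KO, by 0.34 (SE 0.084, adjusted p = 0.00688 in edgeR), where the groups overlapped. In FI3OE Amd1, which provides the aminopropyl donor, rose by 0.36 (SE 0.046, adjusted p = 9.9e-05 in edgeR) and Sat1, which acetylates polyamines for export or breakdown, by 0.31 (SE 0.036, adjusted p = 3.53e-05 in edgeR). In TRAP Atp13a3, a polyamine transporter, fell by 0.24 (SE 0.054, adjusted p = 0.00402 in edgeR) in FI3KO, with an adjusted p of 0.125 with a transcript length offset and 0.334 in replicates 1 and 2 alone. None of the polyamine genes in either comparison was past the fold-change cutoff.

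Among partners, cofactor enzymes and receptors of nitric oxide signalling 4 of 15 tested were higher and 4 lower in FI3OE, and 3 of 13 higher and 1 lower in FI3KO. Gucy1a1, a subunit of the nitric oxide receptor guanylate cyclase, was at 11.2 ± 0.85 CPM in FI3OE against 17.8 ± 0.44 CPM in WT (SD of 3 libraries), a fall by 0.67 (SE 0.075, adjusted p = 3.2e-05 in edgeR) that was past the threshold neither with a transcript length offset (-0.38, adjusted p = 0.195) nor in the fit of all 18 libraries (-0.67, adjusted p = 0.467). Of the other listed subunits of this receptor, named after their values were seen, Gucy1b1 fell by 0.50 (adjusted p = 0.0054) and Gucy1a2 rose by 0.34 (adjusted p = 0.0168, both in edgeR). In TRAP Nos1ap, an adaptor first found on the neuronal synthase, fell from 20.7 ± 6.9 to 5.86 ± 1.0 CPM (SD of 6 libraries; log2 fold change -1.82, SE 0.22, adjusted p = 0.000165 in edgeR), and it was -0.84 with an adjusted p of 0.0548 in replicates 1 and 2 alone. Pts, an enzyme of tetrahydrobiopterin synthesis, the cofactor of all 3 synthases, rose by 0.56 (SE 0.12, adjusted p = 0.00398 in edgeR) and Pde5a, which breaks down cyclic GMP, by 0.61 (SE 0.14, adjusted p = 0.00435 in edgeR). In replicates 1 and 2 alone they were at 0.13 (adjusted p = 0.393) and 0.70 (adjusted p = 0.063, both in edgeR).

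Among other carriers of cationic amino acids 1 of 6 tested was higher and 1 lower in FI3OE, and 0 of 5 higher and 4 lower in FI3KO. Slc3a2, the heavy chain that several carriers of this family need, fell in both comparisons, by 0.31 (SE 0.046, adjusted p = 0.000276) in FI3OE and by 0.57 (SE 0.073, adjusted p = 0.000192, both in edgeR) in FI3KO. Slc7a7, the y+L carrier that exports arginine and is known from kidney, gut and macrophages, rose by 0.34 (adjusted p = 0.0195 in edgeR) in FI3OE. In TRAP it fell from 4.62 ± 0.58 to 1.48 ± 0.46 CPM (SD of 6 libraries; log2 fold change -1.64, SE 0.19, adjusted p = 0.000109 in edgeR), and it was -1.20 with an adjusted p of 0.0859 in replicates 1 and 2 alone. Of 15 macrophage markers 12 were tested in TRAP and 10 fell, with a median log2 fold change of -1.48 over the 12. In FI3OE 5 of 14 tested were higher and 4 lower. The part of macrophages in the values of Slc7a7 was not tested in either comparison. Among arginine methyltransferases and deiminases 2 of 10 tested were higher and 4 lower in FI3OE and 1 of 8 higher and 1 lower in FI3KO. Padi4, a deiminase that turns protein arginine into citrulline and is known from neutrophils, was at 0.167 ± 0.076 CPM in FI3OE against 0.600 ± 0.13 CPM in WT (SD of 3 libraries; log2 fold change -1.86, SE 0.44, adjusted p = 0.00619 in edgeR), and its adjusted p was 0.0988 in the fit of all 18 libraries. Padi4 had few reads: FI3OE libraries lay at 0.112 to 0.254 CPM, and in FI3OE replicate 1 10 reads of Nos2 were 0.423 CPM. It did not pass the filter of at least 10 counts in every library. The summed neutrophil markers were 3.41 to 4.15 CPM in FI3OE and 2.56 to 2.82 CPM in WT, mostly Csf3r (means of 3.06 and 2.16 CPM), which monocytes and macrophages also express, and their part in the value of Padi4 was not tested.

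**Figure D5:**
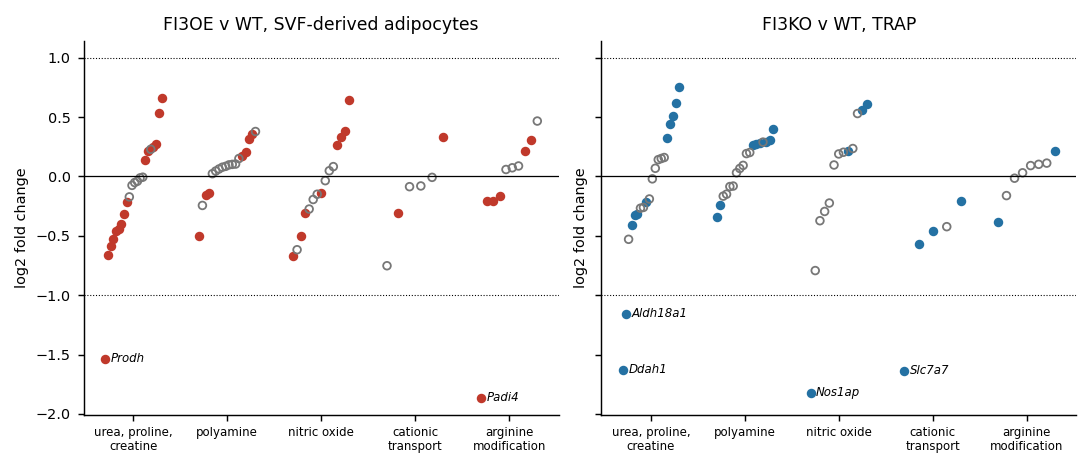
Log2 fold changes of the tested genes of 5 pathway lists, FI3OE against WT in SVF-derived adipocytes (left) and FI3KO against WT in TRAP (right); filled points have an adjusted p of at most 0.05 in edgeR, open points do not, and dotted lines mark a log2 fold change of 1 in either direction. The 6 named points, past both cutoffs, lie between -1.16 and -1.86.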

How the data were processed

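RNA was sequenced in 18 libraries. The members and gene lists were chosen with earlier results of these data known. Per the labels and methods, the authors processed reads with bcl2fastq 2.20.0 and fastp 0.20.1 and quantified transcripts of GENCODE M24 (GRCm38) with Salmon 1.4.0. The deposited tables hold estimated counts, neither normalized nor whole, TPM as the authors' software computed it, and effective lengths. The transposase library kit does not mark strand, and no molecular identifiers are described, so reads are not independent molecules.

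Here estimated counts were summed per gene with GENCODE M21 (117850 of 118733 transcripts matched; the other 883 stayed genes of their own, with 0.375% to 1.08% of reads) and rounded. Each experiment was fitted alone in edgeR 4.0.16 (R 4.3.3): filterByExpr, TMM, quasi-likelihood test, Benjamini-Hochberg adjustment. The standard error is the log2 fold change divided by the square root of F. Named were the 7 members, pathway genes past both cutoffs and, up to 10 in all, those with the lowest adjusted p, and for each member the 3 genes most like it; some listed genes that the rule named are not reported here. The test was run on simulated data first. Alternatives were DESeq2 1.42.0 (size factors, Wald test), other filters, a length offset, a joint fit, a replicate block, protein-coding transcripts only, left-out libraries and sets of TRAP replicates; 2 were chosen after seeing the data, a term for the sets and summing WT TRAP replicates 1 and 2.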

Additional observations from a re-analysis of the deposited data

Results flagged for a closer look

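One TRAP library lay far from the others of its group for a named gene: FI3KO replicate 2 had 2.36 CPM of Slc7a7, against 1.01 to 1.46 CPM in the other 5 FI3KO libraries, and the distance to the nearest of them was 0.666 of the range over the 6. It was still below the WT libraries, the lowest of which was at 3.68 CPM. Such a distance was looked for in 34 groups of 6 libraries, in which chance gives 1.7, and no cause was tested.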

How the results depend on the processing

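Over all alternatives Ass1 kept its direction, with log2 fold changes of 0.78 to 0.89 in SVF-derived adipocytes and -3.69 to -2.77 in TRAP, as did Odc1 (0.10 to 0.16 and 0.19 to 0.39). Slc7a1 in TRAP reversed to 0.0487 in replicates 1 and 2 alone. The sign of Asl, Nos3 and Slc7a2 in TRAP and of Nos2 in SVF-derived adipocytes also differed between alternatives. Genes past both cutoffs in FI3OE numbered 583, against 342 in the fit of all 18 libraries, and genes past the adjusted p numbered 5960, against 1572 in that fit and 3800 with a transcript length offset. In TRAP 901 were past both cutoffs, against 574 with at least 10 counts in every library, 1355 in the fit of all 18, 1868 with replicates 3 to 6 only and 191 with replicates 1 and 2 only, while 5095 were past the adjusted p, against 500 in replicates 1 and 2, where fewer libraries are compared. The cause of the other shifts was not tested. Leaving out 1 library gave 551 to 623 and 4949 to 5197 genes in SVF-derived adipocytes, and 761 to 1115 and 3937 to 5343 in TRAP. With a replicate block the counts were 579 and 5658 in SVF-derived adipocytes and 736 and 3632 in TRAP. The replicate numbers did not pair the libraries, since deviations of same-numbered libraries correlated at -0.375 to 0.068. Nos2 in TRAP had 27 reads or fewer a library and did not pass the filter on low counts in the main fit.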
